A study of Rattus norvegicus with 12 samples.

Results

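RNA was sequenced from rat Schwann cells kept with macrophages conditioned by MIA PaCa-2, a human pancreatic carcinoma cell line, and was compared with RNA from the same cells kept with monocyte-derived macrophages (MDM) that had not been conditioned by tumour cells. The comparison was chosen by its sample labels and holds 6 of the 12 libraries of the series, 3 of the co-culture with MIA PaCa-2-induced tumour-associated macrophages (MiaTAM) and 3 of the MDM co-culture. All 6 share the Schwann cells, and they differ by the macrophages that were added. A co-culture with macrophages conditioned by a further pancreatic carcinoma line, BxPC-3 (BxTAM), and Schwann cells alone, each with 3 libraries, are quoted where they place a value. The MDM libraries are titled PBMC and carry the treatment label "untreated", so their being a co-culture rests on the study's design text. The cells alone are titled Rsc96 and described as HSC96. The labels give neither the species of the macrophages, nor the duration of the co-culture, nor whether the cell types shared a chamber, and they do not say that replicates were separate cultures, so p-values measure the spread between these libraries, which may be technical.

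Schwann cells ensheathe the axons of peripheral nerves. After injury they lose myelin genes, secrete chemokines and trophic factors, and recruit macrophages. Pancreatic carcinoma grows along nerves, where Schwann cells, carcinoma cells and tumour-associated macrophages meet. Macrophage products such as interleukin-1 and tumour necrosis factor act on the NF-kappaB transcription factors, which switch on chemokine genes and their own inhibitors. The endoplasmic reticulum (ER) answers a load of unfolded protein through the sensors Ern1, Atf6 and Eif2ak3, which raise ER chaperones and the factor Ddit3. Cycling cells express DNA replication genes in S phase and the genes of spindle and cell division in G2 and mitosis.

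Library totals lay between 16555215 and 21506669 counts over the 12 libraries. Of 30957 genes in the table, 17963 had a count and 12360 passed the filter on low counts. The first principal component of the 6 libraries held 54.7% of their variance and placed the MiaTAM libraries on one side and the MDM libraries on the other. Levels of single genes below are CPM, counts set to a common library total and scaled by the trimmed mean of M-values (TMM). Summed levels of gene groups are CPM of the raw library total, without the TMM factor. A gene was called at a Benjamini-Hochberg adjusted p under 0.05 in edgeR's quasi-likelihood test, and every adjusted p below comes from that test. Changes are log2 MiaTAM over MDM, n = 3 libraries in each group. Their standard error (SE) was derived from the log2 change and the F statistic of that test, whose fit held all 12 libraries.

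The defining Schwann cell markers were thin in these libraries. Sox10 had 1 count in all 12 libraries together, and Cdh19 and Fabp7 had 0 counts in the 6 compared. Ncam1, Vim, Pax3, Tfap2a and Erbb3 were detected. The summed level of the Schwann identity list lay between 2576 and 2695 CPM in the MDM co-culture and between 2326 and 2453 CPM in the MiaTAM co-culture. Most of that sum was Vim, which was called lower, so the sum says little about the other members. Ptprc, the pan-leukocyte marker, had 0 counts in the MDM libraries and 2 counts in the MiaTAM libraries. Of 27 macrophage markers, 6 were at 0 in both groups and 8 passed the filter, and their summed level was 73.0 to 79.1 CPM against 81.0 to 85.4 CPM. Of the 8, Csf1r, Coro1a and Cd68 were called higher, by 0.71, 0.49 and 0.76 on the log2 scale, and Itgax, the largest part of the sum, was called lower, at -0.16, with a median over the 8 of 0.36. Of all tested genes 19.8% were called higher and 21.1% lower. The call of Itgax was lost with DESeq2 size factors (adjusted p = 0.054) and without MDM replicate 1 or 2 or MiaTAM replicate 1 or 3, and that of Cd68 without MiaTAM replicate 2 (adjusted p = 0.051). The part of these macrophage markers in the results below was not tested.

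The change was broad. MiaTAM co-culture differed from MDM co-culture in 5062 of 12360 genes, which is 41.0% of those tested, with 2453 higher (19.8%) and 2609 lower (21.1%). Most changes were small: 108 called genes were at least 2-fold higher (0.874%) and 89 at least 2-fold lower (0.720%). In 6059 genes (49.0%) the libraries of both groups did not overlap. The median change of all tested genes was -0.01 on the log2 scale. The share of called genes that were higher was 48.5% and passed the midpoint with other scalings, at 50.3% with DESeq2 size factors and 52.6% with upper-quartile scaling, so neither direction can be said to hold more genes. Gene groups below were chosen by function with earlier results of these data known. They are described by how many tested members were called, to be read against the 19.8% and 21.1% above. Most single genes below were named for a large change or a small p. A lack of overlap in them follows closely from that choice.

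**Figure D1:**
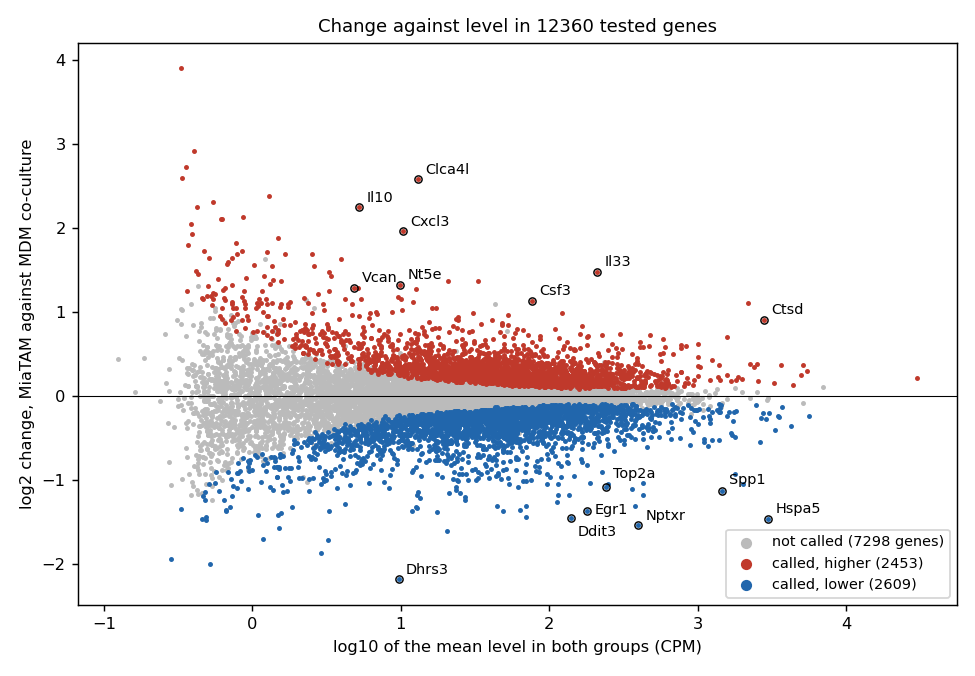
Log2 change, MiaTAM against MDM co-culture, of the 12360 tested genes (y axis) against the log10 of their mean CPM in both groups (x axis), with called genes coloured by direction and some genes labelled. Called genes spread over the range of levels, and Hspa5 is a high-level gene with a change of -1.46.

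ER chaperone genes were lower with MiaTAM. Of 30 tested genes of ER folding and the unfolded protein response, 25 were called lower and 1 was called higher, with a median change of -0.38. Hspa5 (chromosome 3, 13838304 to 13842762, Rnor_6.0) encodes BiP, the main chaperone of the ER lumen. Its CPM were 4415, 4585 and 4067 in the MDM libraries and 1663, 1463 and 1627 in the MiaTAM libraries, a 2.75-fold lower level (log2 change -1.46 ± 0.05 SE, adjusted p = 6.1e-14). Hspa5 is among the 12 genes that fell most, a rule that required no overlap, and its mean in cells alone was 1105 CPM. Hsp90b1, the ER member of the HSP90 family, had 2735, 2746 and 2612 CPM with MDM and 1382, 1214 and 1316 with MiaTAM (log2 change -1.05 ± 0.04 SE, adjusted p = 4.0e-13). P4hb, a protein disulphide isomerase, went from 3114, 3207 and 2947 to 2167, 2140.3 and 2059 CPM (log2 change -0.54 ± 0.04 SE, adjusted p = 1.6e-09). Hsp90b1 and P4hb were named for a small p, so groups that lay apart follow closely from that choice. The calreticulin gene Calr and the calnexin gene Canx changed by -0.44 and -0.46.

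The regulators of the response were lower as well. Xbp1, the factor spliced by Ern1, had 105, 113 and 104 CPM in the MDM libraries and 75.2, 71.9 and 73.2 in the MiaTAM libraries (log2 change -0.55 ± 0.04 SE, adjusted p = 4.4e-09). Ern1 and Atf6 changed by -0.22 and -0.17. Manf, a secreted ER stress protein with trophic activity, went from 171, 168 and 151 to 103, 101 and 96.9 CPM (log2 change -0.71 ± 0.05 SE, adjusted p = 2.2e-09). Ddit3, the stress-induced factor CHOP, stood at 206, 211 and 193 CPM with MDM and 86.9, 67.0 and 68.6 with MiaTAM (log2 change -1.45 ± 0.07 SE, adjusted p = 1.4e-12). That is a 2.74-fold difference. Ddit3 is also among the 12 genes that fell most at a level of 1 CPM or more, a rule that required no overlap. The member called higher was Edem1, which helps dispose of misfolded glycoproteins, at 0.17. The other 4 members were not called.

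The upstream sequences of 2 of these genes are shown because both hold the ER stress response element, searched on both strands as CCAAT and CCACG with 9 bases between them. They are the 250 bases before the transcription start in RefSeq's GRCr8 annotation, 5′ to 3′ on the gene's strand, in lower case with the element in capitals. The window of Hspa5 is chr3:38452766-38453015 on the plus strand and that of Hsp90b1 is chr7:23012294-23012543 on the minus strand.
Hspa5: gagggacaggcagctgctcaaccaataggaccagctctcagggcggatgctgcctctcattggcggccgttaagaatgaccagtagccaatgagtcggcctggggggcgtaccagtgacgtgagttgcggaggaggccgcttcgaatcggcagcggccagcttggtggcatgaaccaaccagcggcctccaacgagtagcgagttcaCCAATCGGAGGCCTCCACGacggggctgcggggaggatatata
Hsp90b1: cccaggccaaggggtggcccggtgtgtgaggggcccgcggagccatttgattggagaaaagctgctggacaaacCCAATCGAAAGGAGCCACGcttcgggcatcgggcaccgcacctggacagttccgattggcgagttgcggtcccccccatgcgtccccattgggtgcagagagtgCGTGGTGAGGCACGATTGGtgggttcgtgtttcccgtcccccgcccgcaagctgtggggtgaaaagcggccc
Hspa5 holds 1 copy and Hsp90b1 holds 2, the second on the opposite strand. The element occurred in 22 of 33469 such windows, 0.066%. Of the 30 tested members of the group 23 had a window in the table, and 8 of them held the element: Hspa5, Hsp90b1, Calr, Canx, Dnajc3, Creld2, Xbp1 and Ero1b. All 8 were called lower, and of the 23 with a window 18 were called lower. A match describes letters in the window and not binding.

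Genes that the factor Atf4 controls under amino acid stress did not follow Ddit3. Of 34 tested, 16 were called higher and 7 lower, with a median of 0.13. Slc7a5, a carrier of large neutral amino acids, had 34.3, 32.0 and 37.2 CPM with MDM and 58.6, 59.0 and 58.2 with MiaTAM (log2 change 0.76 ± 0.06 SE, adjusted p = 2.3e-09). Chac1, which degrades glutathione, went from 49.8, 48.0 and 50.6 to 70.5, 71.8 and 69.8 CPM (log2 change 0.51 ± 0.05 SE, adjusted p = 3.5e-08). Asns, the asparagine synthetase gene, changed by 0.37 and the cysteinyl-tRNA synthetase gene Cars by 0.57. The members called lower were Ddit3, Vldlr, Ddit4, Cebpg, Stc2, Atf3 and Ppp1r15a, and the call of Ppp1r15a was lost when MDM replicate 1 or 3 or MiaTAM replicate 1 or 2 was left out. Atf4 itself changed by 0.14, a call that was lost without MDM replicate 2 (adjusted p = 0.082) or without MiaTAM replicate 1 (adjusted p = 0.058).

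The genes of G2 and mitosis were all lower. Every one of the 33 tested members was called lower, with changes from -1.31 to -0.40 and a median of -0.90. Their summed level was 3680 to 3882 CPM in the MDM libraries and 1943 to 2102 CPM in the MiaTAM libraries. Top2a (chromosome 10, 86901007 to 86932154, Rnor_6.0), the topoisomerase that untangles chromosomes, had 328, 334 and 313 CPM with MDM and 155, 147 and 159 with MiaTAM (log2 change -1.08 ± 0.04 SE, adjusted p = 9.4e-14). Ccna2, the cyclin of S phase and G2, went from 63.4, 64.6 and 63.1 to 25.6, 23.6 and 27.9 CPM (log2 change -1.31 ± 0.06 SE, adjusted p = 9.4e-13). Mki67, the proliferation marker, went from 591, 575 and 542 to 293, 261 and 282 CPM (log2 change -1.03 ± 0.05 SE, adjusted p = 3.1e-12). All 3 genes split the libraries without overlap at close to 2-fold or more, but Top2a and Ccna2 were named for a small p and Mki67 after its values were seen. The kinesins Kif11 and Kif20a, which drive the spindle and cytokinesis, changed by -1.17 and -0.96. Cdk1 and Foxm1, the mitotic kinase and a factor that drives mitotic genes, changed less, by -0.56 and -0.55. Cells alone had higher means than either co-culture, 617 CPM for Top2a and 122 CPM for Ccna2. In bulk RNA, fewer cells in a phase and less RNA per cell cannot be told apart.

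DNA replication genes moved the other way in part. Of 37 tested S phase genes, 17 were called higher and 7 lower, with a median of 0.13. Mcm6, a subunit of the replicative helicase, had 64.5, 62.9 and 68.0 CPM with MDM and 104, 109 and 108 with MiaTAM (log2 change 0.71 ± 0.04 SE, adjusted p = 6.1e-11). Mcm3 went from 29.8, 27.9 and 29.1 to 43.6, 46.6 and 44.0 CPM (log2 change 0.63 ± 0.05 SE, adjusted p = 9.1e-09). Ccne1, the cyclin that starts S phase, went from 9.0, 8.52 and 10.1 to 17.1, 15.2 and 14.5 CPM (log2 change 0.75 ± 0.09 SE, adjusted p = 1.6e-06). The groups did not overlap in any of these 3 genes. The replication licensing genes Cdc6, Orc1 and Cdt1 changed by 0.67, 0.65 and 0.55, and E2f1 by 0.55. Not all members rose: the paralogous cyclin Ccne2 fell by 0.46 on the log2 scale, and 13 members were not called, among them the sliding clamp gene Pcna.

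**Figure D2:**
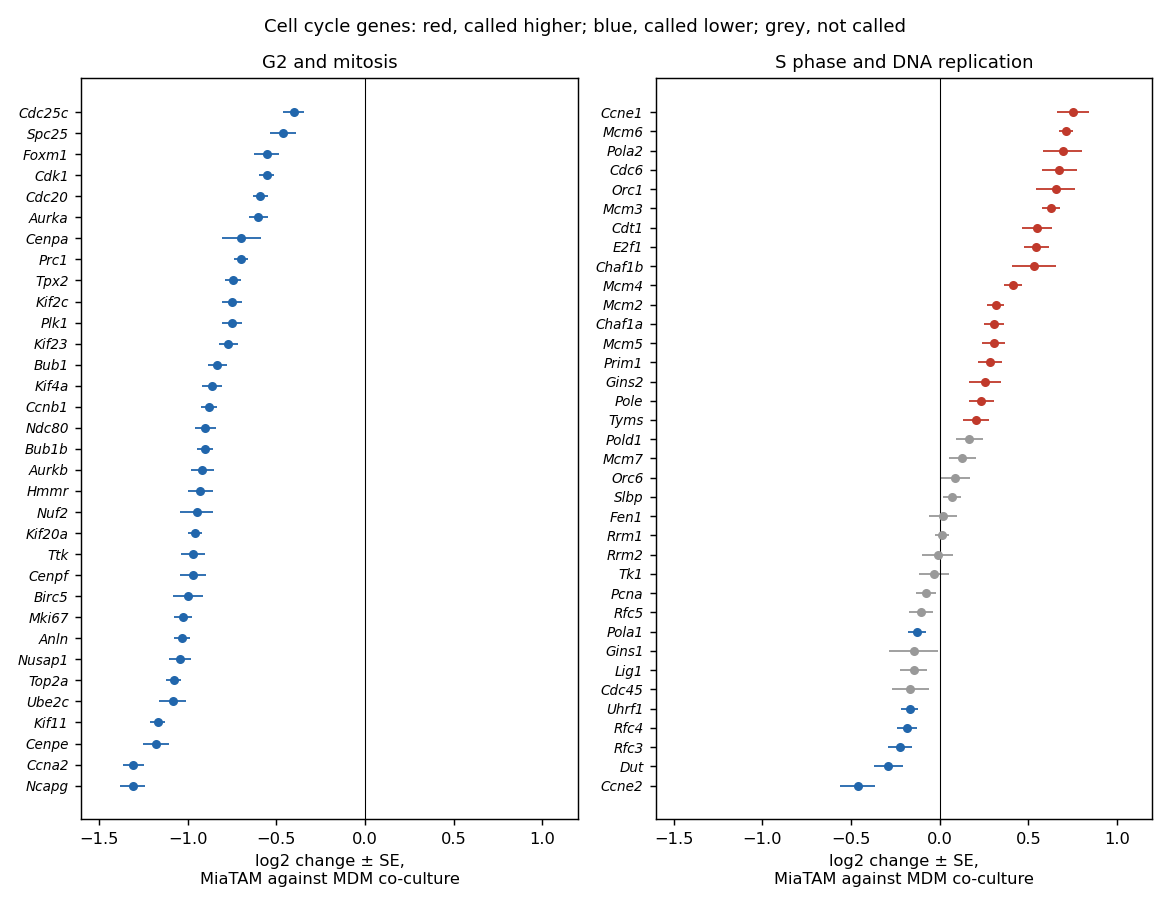
Log2 change with its SE, MiaTAM against MDM co-culture, for tested genes of G2 and mitosis and of S phase, 1 point a gene, coloured by call. All 33 mitotic genes lie below 0, while the S phase genes lie on both sides, with 17 called higher.

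The windows of Top2a and Mcm6 are shown for the elements usually tied to these groups, the cell cycle homology region (CHR, TTTGAA) and the E2F site (TTTGGCGC), on both strands. Top2a lies at chr10:84473094-84473343 and Mcm6 at chr13:42404353-42404602, both on the minus strand of GRCr8, and the element is in capitals.
Top2a: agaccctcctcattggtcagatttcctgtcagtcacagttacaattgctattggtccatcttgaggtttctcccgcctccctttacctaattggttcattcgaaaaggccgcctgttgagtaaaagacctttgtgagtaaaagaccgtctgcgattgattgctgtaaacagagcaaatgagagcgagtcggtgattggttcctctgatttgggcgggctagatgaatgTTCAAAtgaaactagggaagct
Mcm6: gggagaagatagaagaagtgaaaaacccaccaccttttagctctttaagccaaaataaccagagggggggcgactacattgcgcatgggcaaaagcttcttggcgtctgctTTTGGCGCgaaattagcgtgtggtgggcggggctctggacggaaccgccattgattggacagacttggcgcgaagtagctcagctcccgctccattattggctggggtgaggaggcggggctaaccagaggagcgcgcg
In the window of Top2a the CHR lies 22 bases before the start and is read on the opposite strand. TTTGAA was found in 13 of 27 mitotic windows and in 16.2% of all 33469 windows. CCAAT was found in 21 of 27 and in 34.0% of all. The E2F site was found in 5 of 28 S phase windows, and in 0.412% of all. Of these 5, Mcm6, Mcm5 and Tyms were called higher, Pola1 was called lower and Gins1 was not called.

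Genes of ribosome assembly and other Myc targets were more often higher. Of 31 tested, 19 were called higher and 6 lower, with a median of 0.28. Myc had 49.7, 54.0 and 47.2 CPM with MDM and 67.9, 78.7 and 67.5 with MiaTAM (log2 change 0.51 ± 0.06 SE, adjusted p = 3.1e-06). Its raw counts were 1315, 1522 and 1511 in cells alone, 861, 951 and 1012 with MDM and 1302, 1306 and 1245 with MiaTAM. Ddx21, a nucleolar helicase, went from 43.9, 43.6 and 49.7 to 75.1, 66.4 and 69.1 CPM (log2 change 0.62 ± 0.06 SE, adjusted p = 4.8e-08), and the ribosomal RNA processing genes Rrp12, Rrp9 and Bop1 changed by 0.98, 0.81 and 0.67. The 2 abundant nucleolar proteins went the other way, with Npm1 at -0.48 and Ncl at -0.34. Of 25 tested genes of ribosomal proteins, 0 were called higher and 10 lower, with a median of -0.12.

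Inflammatory genes under NF-kappaB were mostly higher. Of 27 tested, 16 were called higher and 3 lower, with a median of 0.59, and their summed level went from 808 to 864 CPM to 1425 to 1468 CPM. Il33 (chromosome 1, 248132090 to 248147029, Rnor_6.0), an alarmin held in the nucleus, had 113, 109 and 110.3 CPM in the MDM libraries and 311, 292 and 325 in the MiaTAM libraries, 2.79-fold higher (log2 change 1.48 ± 0.05 SE, adjusted p = 6.6e-15). The BxTAM mean was 341 CPM and the mean of cells alone 219.6 CPM. The myeloid growth factor genes Csf3 and Csf1 were higher too, while Csf2 was called lower. Csf3, which drives neutrophil production, had 49.0, 42.8 and 51.3 CPM with MDM and 114, 107 and 93.7 with MiaTAM (log2 change 1.14 ± 0.07 SE, adjusted p = 7.8e-11). Csf1, the macrophage growth factor, went from 114, 121 and 121 to 209.8, 212 and 215 CPM (log2 change 0.84 ± 0.04 SE, adjusted p = 9.7e-13). Both left the MDM range in every MiaTAM library.

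Neutrophil chemokines rose together. Cxcl1 had 83.9, 82.2 and 79.6 CPM with MDM and 165, 154 and 167 with MiaTAM (log2 change 0.98 ± 0.05 SE, adjusted p = 2.8e-11). Cxcl3 went from 4.33, 5.0 and 3.41 to 14.9, 18.9 and 15.5 CPM, 3.90-fold (log2 change 1.96 ± 0.16 SE, adjusted p = 5.0e-09), and Cxcl6 changed by 1.55. The monocyte chemokine Ccl2 had 55.1, 44.9 and 62.4 CPM with MDM and 85.7, 73.8 and 81.1 with MiaTAM (log2 change 0.56 ± 0.08 SE, adjusted p = 8.6e-06), with the third MDM library the nearest to the MiaTAM range. Cxcl12, which guides leukocytes and carcinoma cells through Cxcr4, went from 82.1, 75.1 and 80.3 to 139, 140.5 and 135 CPM (log2 change 0.80 ± 0.04 SE, adjusted p = 6.2e-12). Its BxTAM mean was 221 CPM and its mean in cells alone 234 CPM, so the MiaTAM libraries lay between the MDM libraries and these. Members of this chemokine cluster resemble each other, and no label says how reads shared between them were counted.

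The interleukins stood at low levels. Il10, an anti-inflammatory cytokine, had 1.44, 1.76 and 2.19 CPM with MDM and 10.2, 7.83 and 7.97 with MiaTAM, 4.75-fold (log2 change 2.25 ± 0.17 SE, adjusted p = 2.2e-09), and its mean in cells alone was 10.3 CPM. Il6 went from 0.231, 0.341 and 0.140 to 1.10, 1.15 and 0.813 CPM (log2 change 2.10 ± 0.44 SE, adjusted p = 6.5e-04). Both genes were named among the 12 largest rises, a rule that required no overlap between the groups, and Il6 rests on few reads. Ptgs2 and Ptges, the enzymes that make prostaglandin E2, changed by 1.05 and 0.99, and the receptor gene Tlr2 by 1.22. Il1b, Ccl3, Ccl5 and Ccl20 had 0 counts in both groups.

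The 3 members called lower were Cxcl10, C3 and Csf2, of which Csf2 lost its call without MDM replicate 3 (adjusted p = 0.10) or MiaTAM replicate 3 (adjusted p = 0.12). Cxcl10, a chemokine for T cells that interferon also induces, had 38.2, 37.6 and 37.2 CPM with MDM and 19.1, 19.1 and 18.5 with MiaTAM (log2 change -1.0 ± 0.06 SE, adjusted p = 7.5e-11). The complement gene C3 went from 5.42, 5.57 and 4.20 to 1.98, 2.41 and 2.71 CPM (log2 change -1.09 ± 0.18 SE, adjusted p = 7.9e-05). Of 34 tested interferon response genes, 7 were called higher and 5 lower, with a median of 0.03, so Cxcl10 did not stand for that group. Rsad2, an antiviral enzyme, changed by -0.92, while Ifit2 and Parp14 changed by 0.62 and 0.56.

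The NF-kappaB system's own inhibitors rose with its targets. Of 22 tested subunits and feedback genes, 13 were called higher and 1 lower, with a median of 0.29. Nfkbia, the inhibitor IkappaB-alpha, had 36.0, 34.0 and 36.3 CPM with MDM and 66.4, 71.4 and 69.4 with MiaTAM (log2 change 0.96 ± 0.06 SE, adjusted p = 2.9e-10). Zc3h12a, an RNase that degrades cytokine transcripts, went from 35.1, 35.0 and 33.5 to 61.0, 65.1 and 60.0 CPM (log2 change 0.85 ± 0.06 SE, adjusted p = 6.7e-10). The subunit genes Relb, Nfkb1 and Rela changed by 0.57, 0.39 and 0.21. The member called lower was Cyld, a deubiquitinase that restrains the pathway, at -0.22.

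**Figure D3:**
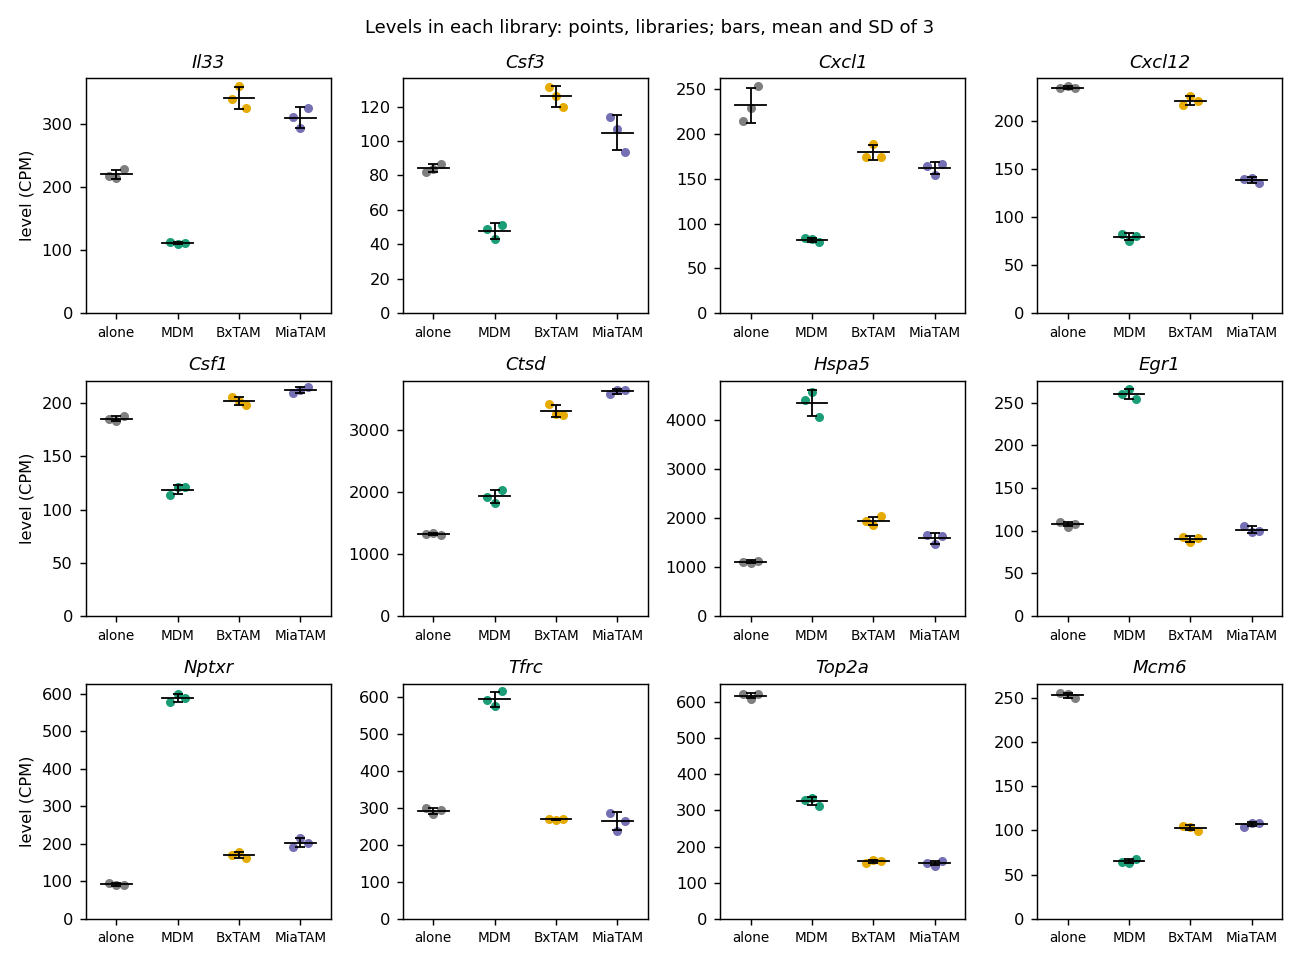
CPM of 12 genes (y axis from 0) in every library of the 4 groups, with 1 point a library and bars for the mean and SD of 3 libraries. In all 12 genes the 3 MiaTAM libraries lie apart from the 3 MDM libraries, above them in the first 6 genes and in Mcm6 and below them in the others. The genes were named for a large change or a small p, so this separation follows closely from that choice.

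The Cxcl1 window is shown for the NF-kappaB site, searched on both strands as GGG and TTTCC with 2 bases between them, at chr14:17479322-17479571 on the minus strand of GRCr8 with 2 matches in capitals.
Cxcl1: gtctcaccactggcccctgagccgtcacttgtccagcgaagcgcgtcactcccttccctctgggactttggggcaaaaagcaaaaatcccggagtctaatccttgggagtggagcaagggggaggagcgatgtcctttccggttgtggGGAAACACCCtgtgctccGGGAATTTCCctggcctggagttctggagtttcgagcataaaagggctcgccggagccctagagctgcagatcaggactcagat
Of 19 inflammatory genes with a window, 3 held the site, Cxcl1, Cxcl6 and Il6, against 1.3% of all windows. All 3 were called higher, and of the 19 with a window 9 were called higher. Elements of other groups were searched too. The sterol element was in 0 of 18 cholesterol windows and the antioxidant element in 2 of 18 NRF2 windows (0.23% and 2.423% of all). The interferon element was in 15 of 26 interferon response windows (3.406% of all), with 4 of these genes called lower and 1 higher. A variant E2F site was in 3 of 28 S phase windows (0.813% of all).

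Genes of glycolysis and the hypoxia response were mostly lower. Of 36 tested, 26 were called lower and 3 higher, with a median of -0.26. Ero1a (listed as Ero1l), an ER oxidase that Hif1a induces, had 2513, 2225 and 2291 CPM with MDM and 1198, 1197 and 1319.7 with MiaTAM (log2 change -0.92 ± 0.06 SE, adjusted p = 1.6e-10). Kdm3a, a histone demethylase induced by hypoxia, went from 215, 212 and 203 to 126, 117 and 123 CPM (log2 change -0.78 ± 0.04 SE, adjusted p = 8.3e-12). Ankrd37, a hypoxia target, had 5.48, 4.60 and 4.67 CPM with MDM and 1.46, 1.75 and 1.3 with MiaTAM (log2 change -1.71 ± 0.19 SE, adjusted p = 5.0e-07). No MiaTAM library reached the MDM range in Ero1a and Kdm3a, while Ankrd37 was named by a rule that required no overlap. The growth factor gene Vegfa and the glucose carrier gene Slc2a1 changed by -0.51 and -0.50. The glycolytic enzyme genes Gpi, Gapdh and Pgk1 changed by -0.52, -0.49 and -0.35. Ldha, which turns pyruvate into lactate, went against them, from 2096, 2173 and 2189 to 2769, 2866 and 2819 CPM (log2 change 0.39 ± 0.04 SE, adjusted p = 6.3e-08), and Hif1a changed by 0.17.

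Mitochondrial transcripts went up by smaller amounts. Of 11 tested genes of the mitochondrial chromosome, 8 were called higher and 1 lower, with a median of 0.22. Mt-nd5, a complex I subunit, had 1134, 1163 and 1261 CPM with MDM and 1819, 1879 and 2109 with MiaTAM (log2 change 0.71 ± 0.06 SE, adjusted p = 7.7e-09). Of 28 tested nuclear genes of oxidative phosphorylation, 10 were called higher and 2 lower, with a median of 0.10. The call lower of Mt-nd6 was lost when MDM replicate 1 or 3 or MiaTAM replicate 1 or 2 was left out, and the nuclear genes called lower came to 1 without MDM replicate 1 or 2 or MiaTAM replicate 3. The share of mitochondrial transcripts can also follow RNA quality, which was not tested.

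Lipid genes rose in part. Of 26 tested fatty acid and LXR genes, 13 were called higher and 1 lower, with a median of 0.12, and the members called lower came to 4 without MiaTAM replicate 3 and to 2 without MDM replicate 1. Fasn, the fatty acid synthase, had 589, 595 and 652 CPM with MDM and 920.5, 957 and 916 with MiaTAM (log2 change 0.61 ± 0.05 SE, adjusted p = 2.7e-09), and the LXR targets Lpcat3 and Abcg1 changed by 0.58 and 0.50. Of 25 tested cholesterol genes, 11 were called higher and 4 lower, with a median of 0.11. Fdps, which makes farnesyl diphosphate, went from 301, 336 and 344 to 487, 509 and 480.0 CPM (log2 change 0.59 ± 0.05 SE, adjusted p = 3.2e-09), and Msmo1 changed by 0.50. Insig1, the sterol sensor that holds back SREBP, went the other way, from 477, 484 and 455 to 380.2, 352 and 368 CPM (log2 change -0.36 ± 0.04 SE, adjusted p = 1.6e-06).

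**Figure D4:**
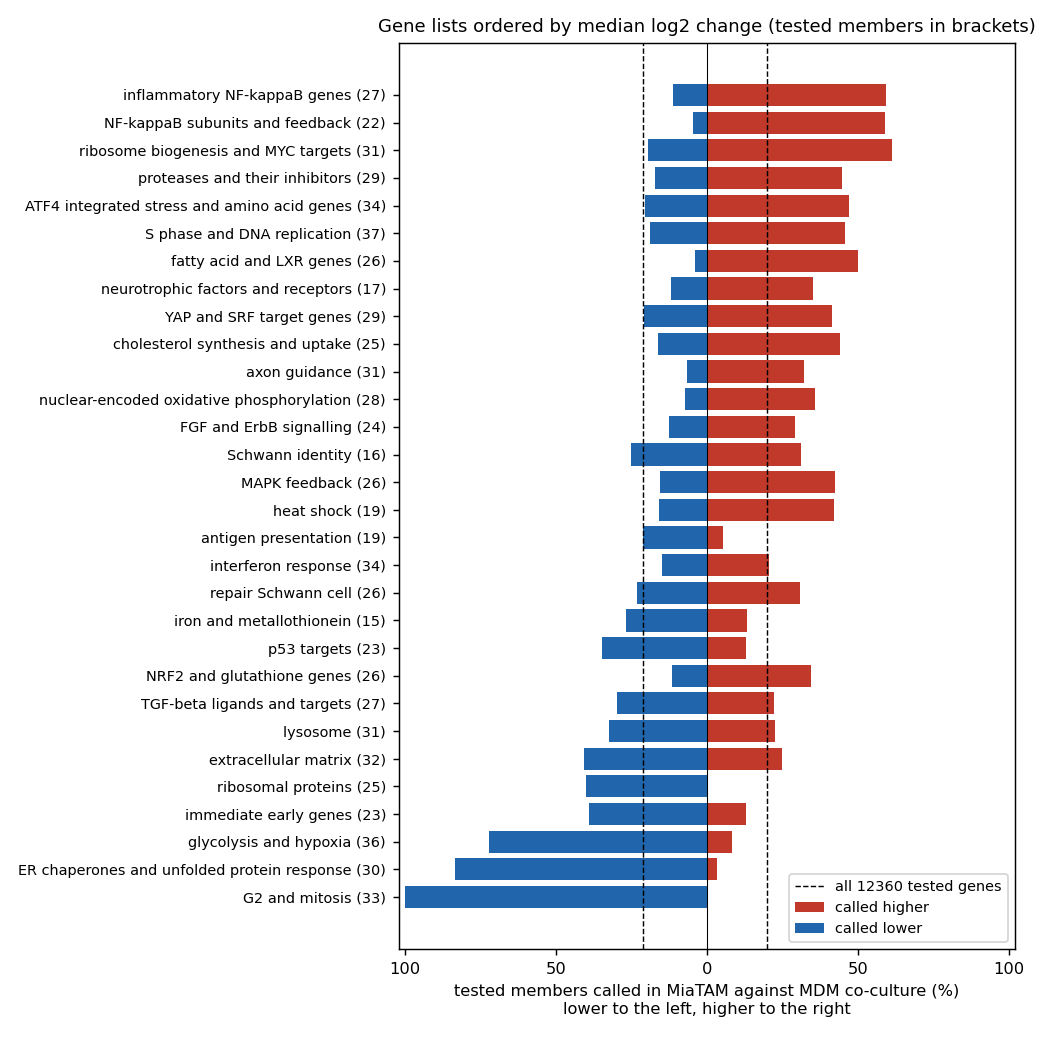
Share of tested members called higher (right, red) and lower (left, blue) with MiaTAM against MDM co-culture, for gene groups with 15 or more tested members, ordered by median change. Dashed lines mark the shares over all tested genes, 19.8% and 21.1%, and the group of G2 and mitosis was called lower in all of its 33 genes.

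The matrix around the cells changed gene by gene. Of 32 tested extracellular matrix genes, 8 were called higher and 13 lower, with a median of -0.07. Spp1, the secreted matrix protein osteopontin, had 2026, 1975 and 1979 CPM with MDM and 998, 875 and 853 with MiaTAM (log2 change -1.13 ± 0.05 SE, adjusted p = 4.2e-13). The collagen genes Col5a2 and Col5a1 and the basement membrane collagen gene Col4a5 changed by -0.56, -0.32 and -0.34. Vcan, a large proteoglycan, went from 3.34, 2.90 and 2.29 to 7.41, 7.53 and 5.75 CPM (log2 change 1.29 ± 0.16 SE, adjusted p = 2.0e-06), and Fbn1, the microfibril protein, from 608, 612 and 626 to 896, 908 and 947 CPM (log2 change 0.58 ± 0.04 SE, adjusted p = 1.2e-09).

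Proteases and their inhibitors were more often higher. Of 29 tested, 13 were called higher and 5 lower, with a median of 0.17. Ctsd, the lysosomal aspartic protease cathepsin D, had 1919.9, 1820.3 and 2034 CPM with MDM and 3569.8, 3639 and 3649 with MiaTAM (log2 change 0.91 ± 0.04 SE, adjusted p = 1.4e-12). Its mean in cells alone was 1319 CPM. Timp1, an inhibitor of metalloproteinases, went from 471, 437 and 436 to 777, 717 and 655 CPM (log2 change 0.68 ± 0.05 SE, adjusted p = 2.5e-09), and Mmp10 changed by 0.83. Mmp13, a collagenase, went down from 568, 503 and 535 to 238, 192 and 217 CPM (log2 change -1.31 ± 0.07 SE, adjusted p = 8.3e-12). Other lysosomal genes did not follow Ctsd, with 6 of the other 30 tested called higher and 10 lower. The protease genes called lower numbered 3 without MDM replicate 1 or MiaTAM replicate 2.

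Nerve-directed factors were raised in a few members. Of 17 tested neurotrophic factors and receptors, 6 were called higher and 2, Manf and Ptn, lower. Leaving out any MDM library left 1 called lower. Ptn, the cytokine pleiotrophin, also lost its call without MiaTAM replicate 1 (adjusted p = 0.25) or 2 (adjusted p = 0.092). Lif, a cytokine that acts on neurons and Schwann cells, went from 16.8, 15.3 and 16.5 to 29.4, 33.3 and 29.5 CPM (log2 change 0.92 ± 0.08 SE, adjusted p = 3.7e-08). Bdnf went from 32.8, 27.4 and 32.4 to 36.5, 37.3 and 40.0 CPM (log2 change 0.30 ± 0.07 SE, adjusted p = 0.0016), a smaller change. Gdnf had means of 9.28 ± 0.630 and 10.3 ± 0.734 CPM (SD, n = 3) and was not called (log2 change 0.16 ± 0.12 SE, adjusted p = 0.3), and Nrg1 was not called either. The receptor genes Ntrk2 and Ret did not pass the filter. Fgfr1, an FGF receptor, had 2.08, 2.33 and 2.33 CPM with MDM and 3.96, 4.28 and 4.07 with MiaTAM (log2 change 0.86 ± 0.15 SE, adjusted p = 1.3e-04), while its ligand Fgf2 overlapped between the groups (log2 change 0.21 ± 0.15 SE, adjusted p = 0.29).

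Schwann cell state genes showed no single direction. Of 26 tested genes of the repair Schwann cell, 8 were called higher and 6 lower. Of 16 tested identity genes, 5 were called higher and 4 lower, and those higher came to 3 without MDM replicate 1 or 2 or MiaTAM replicate 2. Ncam1, a cell adhesion molecule of immature Schwann cells, went from 186, 215 and 188 to 136, 127 and 141 CPM (log2 change -0.54 ± 0.05 SE, adjusted p = 1.6e-07). Gfap stayed near 1 CPM, at 0.980, 1.42 and 1.26 with MDM and 1.04, 1.63 and 1.14 with MiaTAM (log2 change 0.04 ± 0.25 SE, adjusted p = 0.92). Ngfr, the p75 receptor, had 1.61, 1.93 and 2.94 and 2.14, 0.783 and 1.3 CPM (log2 change -0.62 ± 0.30 SE, adjusted p = 0.11) and Erbb3 12.2, 11.4 and 15.1 and 14.5, 14.5 and 16.6 CPM (log2 change 0.23 ± 0.11 SE, adjusted p = 0.094). The groups overlapped in all 3 genes, and Ngfr was called lower without MiaTAM replicate 1 (adjusted p = 0.016) and Erbb3 higher without MDM replicate 3 (adjusted p = 0.013).

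Fast-response genes were lower in part. Of 23 tested immediate early genes, 9 were called lower and 3 higher, with a median of -0.13. Egr1, a factor induced within minutes of growth signals, had 259.6, 266 and 254 CPM with MDM and 106, 98.3 and 99.0 with MiaTAM (log2 change -1.36 ± 0.04 SE, adjusted p = 3.5e-15). Its mean in cells alone was 107 CPM, next to the MiaTAM libraries. Fos and Zfp36 changed by -0.77 and -0.78, and 11 members were not called. These genes also respond to handling, and any difference in handling was not tested. Ccn2 (listed as Ctgf), a matricellular target of YAP and TGF-beta, went from 18.3, 18.8 and 18.4 to 6.57, 7.29 and 8.13 CPM (log2 change -1.33 ± 0.10 SE, adjusted p = 2.0e-09), and Ccn1 (listed as Cyr61) from 94.5, 98.2 and 85.5 to 45.4, 46.3 and 46.0 CPM (log2 change -1.01 ± 0.06 SE, adjusted p = 2.9e-11). The rest of the YAP and SRF group did not move with them, with 12 of the other 27 tested genes called higher and 4 lower.

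Among genes with a mean of at least 1 CPM in either group, the 12 with the largest called rises were Clca4l, Slc17a6, Il10, Gsg1, Atp10b, Il6, Cxcl3, Has1, Magec2, Gsdma, Abca12 and Gsta1. Clca4l, of a family of chloride channel accessory proteins, had 4.09, 4.03 and 3.17 CPM with MDM and 23.3, 21.6 and 22.3 with MiaTAM, 6.0-fold (log2 change 2.58 ± 0.10 SE, adjusted p = 1.5e-13). Slc17a6, a vesicular glutamate carrier, went from 0.231, 0.511 and 0.467 to 1.77, 2.23 and 2.49 CPM (log2 change 2.39 ± 0.27 SE, adjusted p = 6.4e-07). Has1, a hyaluronan synthase, went from 0.750, 0.738 and 0.420 to 2.30, 2.23 and 2.44 CPM (log2 change 1.89 ± 0.26 SE, adjusted p = 7.1e-06). Most of the 12 stood below 5 CPM in every library, so their folds rest on few reads. Gsta1 and Clca4l belong to families with close copies, whose shared reads may have been split in the counting.

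The 12 largest called falls were Dhrs3, Fbxl13, Ankrd37, Olfm1, Taf9, Cadm2, Nptxr, Hspa5, Ddit3, Kif20b, Adamts14 and Trim17. Dhrs3, which reduces retinal to retinol, had 15.9, 15 and 16.8 CPM with MDM and 2.76, 3.31 and 4.45 with MiaTAM, 4.53-fold lower (log2 change -2.18 ± 0.13 SE, adjusted p = 4.4e-11). Nptxr, a receptor for neuronal pentraxins, went from 579, 599 and 587 to 190.2, 215 and 203 CPM (log2 change -1.54 ± 0.04 SE, adjusted p = 3.5e-15). Its mean in cells alone was 91.6 CPM, below both co-cultures. Taf9 had 39.6, 13.4 and 39.9 CPM with MDM, where the second library lay far below the others, and 11.4, 10.9 and 8.30 with MiaTAM (log2 change -1.61 ± 0.41 SE, adjusted p = 0.0033). Tfrc, the transferrin receptor that takes up iron, went from 592, 575 and 615 to 287, 238 and 265 CPM (log2 change -1.17 ± 0.05 SE, adjusted p = 7.3e-13).

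MiaTAM and BxTAM co-culture were set against each other directly, since both share the MDM libraries as controls and their changes against MDM are not independent. They differed in 2997 genes (24.2%), 1356 higher with MiaTAM (11.0%) and 1641 lower (13.3%). Past 2-fold, 28 genes (0.227%) stood above and 5 (0.0405%) below BxTAM. The count of called genes came to 1933 without MiaTAM replicate 2, 1978 without BxTAM replicate 2 and 1976 without BxTAM replicate 3. Of the groups above, mitosis had 6 of 33 genes called higher and 5 lower in MiaTAM, and the inflammatory genes 2 of 27 higher and 6 lower. Without BxTAM replicate 1 the mitotic genes called higher came to 3, and without MiaTAM replicate 2 the inflammatory genes called lower came to 3. The inflammatory genes called higher came to 1 without MiaTAM replicate 2 or BxTAM replicate 2 or 3. Hspa5 had means of 1585 ± 107 CPM with MiaTAM and 1941 ± 89.4 with BxTAM (SD, n = 3; log2 difference -0.29 ± 0.05 SE, adjusted p = 5.4e-04). Cxcl12 was lower with MiaTAM (log2 difference -0.68 ± 0.04 SE, adjusted p = 1.2e-09), and Il33 was lower by less (log2 difference -0.14 ± 0.04 SE, adjusted p = 0.029), a call that was lost without MiaTAM replicate 2 or BxTAM replicate 1 or 2, at an adjusted p of 0.14, 0.056 and 0.17. Top2a was not called (log2 difference -0.05 ± 0.04 SE, adjusted p = 0.44).

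Cholesterol, oxidative phosphorylation and ER chaperone genes were among the groups that differed between the TAM co-cultures. Of 30 ER genes, 12 were called lower with MiaTAM than with BxTAM and 4 higher, with a median of -0.08. Of 23 p53 targets, 9 were called lower and 3 higher, with a median of -0.13. Of 25 cholesterol genes, 14 were called lower with MiaTAM than with BxTAM and 2 higher, with a median of -0.20, and those higher came to 1 without BxTAM replicate 2. Of 26 fatty acid and LXR genes, 4 were called higher and 4 lower, with a median of -0.03, and each count came to 2 without BxTAM replicate 2 or 3. Insig1 had a BxTAM mean of 532 ± 10.5 CPM and a MiaTAM mean of 367 ± 14.0 CPM (SD, n = 3; log2 difference -0.53 ± 0.04 SE, adjusted p = 1.5e-07). Of 28 nuclear oxidative phosphorylation genes, 16 were called higher with MiaTAM and 0 lower, with a median of 0.13. Those called higher came to 10 without MiaTAM replicate 2 and to 9 without BxTAM replicate 3. Of 34 interferon response genes, 11 were called lower and 1 higher, with a median of -0.14, and those higher came to 2 without MiaTAM replicate 1 or BxTAM replicate 2.

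The single genes that stood most above BxTAM at a level of 1 CPM or more were Pmepa1, Actn3, Fa2h, Cubn, P2ry6 and Plxdc1. Pmepa1, a TGF-beta target, had 2.66, 2.59 and 1.84 CPM in the MiaTAM libraries, 4.56, 4.71 and 4.06 in the MDM libraries and a BxTAM mean of 0.334 CPM, and it had 0 counts in cells alone (log2 difference 2.81 ± 0.31 SE against BxTAM, adjusted p = 1.0e-05). The MiaTAM libraries thus lay between the MDM and BxTAM libraries. Those that stood most below BxTAM were Klkb1, Cep290, Hmgn5, Fcgr2b, Clec2g and Ankrd37. Several of these genes stood near 1 CPM. The calls of P2ry6 and Klkb1 were lost without BxTAM replicate 3, and that of Fcgr2b when MiaTAM replicate 1 or 2 or BxTAM replicate 1 or 2 was left out. BxTAM against MDM called 34.7% of all genes, 17.4% higher and 17.3% lower.

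**Figure D5:**
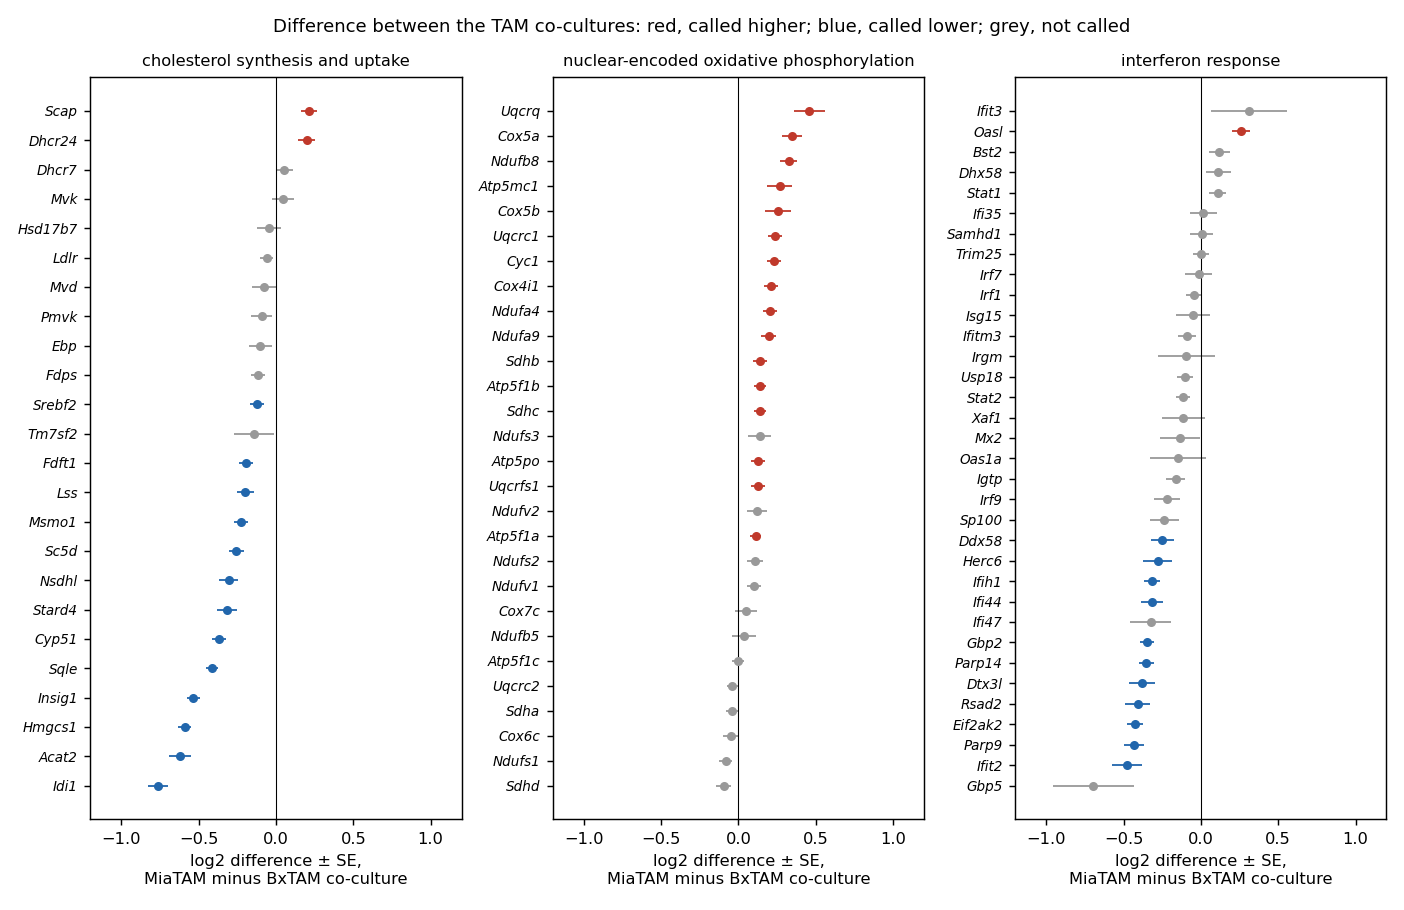
Log2 difference with its SE, MiaTAM minus BxTAM co-culture, for tested genes of cholesterol synthesis and uptake, nuclear oxidative phosphorylation and the interferon response, coloured by call. Most called cholesterol genes lie below 0, and in the oxidative phosphorylation panel 16 of 28 genes were called higher.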

How the data were processed

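Libraries came from total RNA by a kit that keeps strand, per the labels' protocols. The build Rnor_6.0 and the tools HISAT2, StringTie 1.3.0 and CASAVA are named in the submitters' processing notes. For the counting tool, the annotation release and the strand setting, no source used here gives a name. The authors deposited 1 table with raw counts per gene and library, per the file headers, and FPKM values, scaled by the authors by gene length and library total. Gene names are those of the table, and RefSeq's GRCr8 tables gave promoter windows and older names. Of 993 list symbols, 940 matched by symbol and 13 by RefSeq name.

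Counts were analysed in edgeR 4.0.16 under R 4.3.3, with filterByExpr by group, TMM factors from 0.980 to 1.01, and 1 quasi-likelihood fit of all 12 libraries in 4 groups with a common dispersion of 0.00218. Adjustment was over all 12360 tested genes. The fit was tested on counts simulated with the dispersions estimated from these data, with changes set only in genes above 1 CPM. A fit of 12258 genes recovered 72 of 73 genes changed by 1 log2 unit and 55 of 65 changed by 0.5. It called 17 of 12058 unchanged genes. Changes in genes below 1 CPM were not simulated. Nor was a change as broad as the 41.0% of genes called against MDM, so scaling and false calls under such a change were not tested. Within each group no library was a duplicate of another, and no column lacked a sample. FPKM entered limma 3.58.1 as log2(FPKM + 1) and the counts entered DESeq2 1.42.0 as alternatives; other alternatives changed the scaling, the filter, the libraries in the fit, a block and each library in turn. The labels number the replicates alike in every group, and same-numbered MiaTAM and MDM libraries deviated from their group means with correlations of -0.10, 0.06 and -0.13, so the numbers were not taken as pairs.

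The comparison, the gene lists and the rules were chosen with earlier results of these data known. Genes were named by rule: the 12 largest called rises and falls with at least 1 CPM and no overlap, up to 5 called members per list and direction by smallest p, the 6 largest differences each way from BxTAM, and a short list of genes always given. A few genes are not reported here, by name or in figures, and remain in the group counts. Genes named in the text outside that rule, among them Mki67, Calr, Cxcl6, Ptgs2, Vegfa and Rrp12, were chosen after their values were seen.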

Additional observations from a re-analysis of the deposited data

Results flagged for a closer look

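In 74 of the 12360 tested genes MiaTAM and BxTAM co-culture were both called against the MDM co-culture and in opposite directions. In all 74 the direct test of MiaTAM against BxTAM called the difference. That follows closely from how the genes were chosen, since the difference adds 2 called changes of opposite sign. Both changes share the MDM libraries. Of the 74 genes, 6 are given here by name. With MiaTAM above MDM and BxTAM below it, the MiaTAM minus BxTAM difference was 1.10 on the log2 scale for Cldn4, a tight junction protein, 0.59 for Uchl1, a neuronal and Schwann cell deubiquitinase, and 0.72 for Cadm4, an adhesion protein of myelinating Schwann cells. With MiaTAM below MDM and BxTAM above it, the difference was -0.53 for Insig1 and -0.76 for Idi1, which regulate or carry out sterol synthesis, and -0.43 for Eif2ak2, the RNA-activated kinase PKR. The calls of Idi1 and Eif2ak2 against MDM were lost when some single libraries were left out, Idi1 at an adjusted p of 0.17 and Eif2ak2 at 0.11 without MiaTAM replicate 2.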

How the results depend on the processing

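For MiaTAM against MDM co-culture, the number of called genes lay between 4526 and 5059 over the other fits and scalings. Leaving out 1 library at a time gave 4234 to 4777 called, 2023 to 2273 higher and 2211 to 2504 lower, with 99 to 111 at 2-fold or more higher and 88 to 121 lower. On log2(FPKM + 1) with limma, 10 genes were at 2-fold or more higher and 33 lower, where the added pseudocount shrinks the change of low genes. For MiaTAM against BxTAM, leaving out 1 library gave 1933 to 3113 called, 816 to 1406 higher and 1095 to 1707 lower, and 21 to 40 and 4 to 16 at 2-fold or more; the total called was lowest without MiaTAM replicate 2, at 1933, and was 1976 and 1978 without BxTAM replicate 3 and 2, and the cause was not tested. The 2-fold counts were 7 higher and 3 lower with DESeq2's Wald test, 3 lower with a filter of 1 CPM in 3 libraries, and 1 and 0 with limma. With the replicate block, 5059 genes were called against MDM and 2993 against BxTAM. The numbers were not taken as pairs, and only MiaTAM and MDM libraries were checked for pairing. Directions that reversed belong to genes not called against MDM: leaving out 1 library gave -0.024 to 0.22 for Actn3, -0.17 to 0.16 for Gfap, -0.33 to 0.36 for Fcgr2b and -0.032 to 0.22 for Clec2g, and the cause was not tested. The list of G2 and mitosis kept 33 of 33 called lower, and that of ER chaperones 24 or 25 of 30, under every alternative. Of 35 lists with 5 or more tested members, 26 kept the sign of their median. Low counts limit genes near 1 CPM.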

Other observations

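Gene groups outside the account above are given here against the MDM co-culture as values. Of 31 tested axon guidance genes, 10 were called higher and 2 lower, and those higher came to 6 without MDM replicate 1 and those lower to 1 without MiaTAM replicate 3; Nrp1, a receptor for semaphorins and VEGF, had a mean of 9.97 CPM with MDM and 12.9 CPM with MiaTAM. Of 26 MAPK feedback genes, 11 were called higher and 4 lower, those lower coming to 2 without MDM replicate 2 or MiaTAM replicate 1, with Ereg, an EGF receptor ligand, at 0.75 and Dusp7, a phosphatase of ERK, at 0.61 on the log2 scale. Of 19 heat shock genes, 8 were called higher and 3 lower, with the small heat shock gene Hspb1 at 0.70. Of 23 p53 targets, 3 were called higher and 8 lower, with the cell cycle inhibitor gene Cdkn1a at -0.43 and Mdm2 at -0.27. Of 27 TGF-beta ligands and targets, 6 were called higher and 8 lower.

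Of 26 NRF2 and glutathione genes, 9 were called higher and 3 lower, those lower coming to 1 without MDM replicate 2, and 11 were called higher with MiaTAM than with BxTAM. Fth1, the heavy chain of the iron store ferritin, changed by 0.46 against MDM. Among 19 antigen presentation genes 1 was called higher, or 2 without MiaTAM replicate 1 or 3, and 4 lower, with B2m, the light chain of class I molecules, at -0.29. Markers of other cell types differed in level: the summed level of 5 lists ran from below 3 CPM for lymphocyte markers to above 600 CPM for fibroblast markers. Of 12 fibroblast markers 5 were tested, and 5 had 0 counts in both groups, among them Col1a2, Lum and Dcn. Of the 5 tested, Pdgfra and Pdgfrb were called lower and 0 were called higher. Endothelial markers summed to 51.2 to 51.6 CPM with MDM and 74.5 to 80.6 CPM with MiaTAM, most of it Flt1, a VEGF receptor, while Emcn and Cldn5 were at 0 counts.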
